A study of Mus musculus with 8 samples.

Results

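Livers of GlulΔlyz2 mice that had received H2O were compared with livers of Glul flox/flox mice that had received H2O, to show what the genotype does to the liver transcriptome before any injury. The members are the 12290 genes, of 55416 in the table, with at least 1 FPKM (fragments per kilobase of exon, after scaling to each library's total) in at least 2 of the 4 H2O libraries. GlulΔlyz2 mice, called KO, lack Glul in cells that express Cre recombinase from Lyz2, and the floxed mice carry the floxed allele on both copies. Each group held 2 bulk liver libraries made from TRIzol RNA, and both groups had received H2O into the peritoneum. Another 4 libraries, 2 KO and 2 floxed, came from mice injured with 1 mg/kg LPS (lipopolysaccharide) and 200 mg/kg D-GalN (D-galactosamine). Those 4 entered the filter on low values, the shared estimate of the spread and the comparisons that name injured livers or all 8 libraries. The labels give no age, sex, Cre line or time of collection. They leave unsaid whether replicate libraries are from different animals, and p-values therefore reflect the spread between libraries alone.

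Glul encodes glutamine synthetase, which joins glutamate and ammonia into glutamine. In the liver its main source is the ring of hepatocytes around the central vein, and macrophages use the same enzyme to set their glutamine supply. Lyz2 encodes a lysozyme of macrophages, monocytes and neutrophils, so Lyz2-driven Cre acts in Kupffer cells, the resident macrophages of the liver, and in myeloid cells that enter it. Type I interferon, which many liver cells sense, acts through a transcription factor complex that holds IRF9 and binds the interferon-stimulated response element (ISRE) in the promoters of antiviral genes.

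The values imply 21331305 and 18381670 assigned fragments in KO livers, against 21261348 and 23432978 in floxed livers. Mitochondrially encoded genes took 22.6% and 13.5% of fragments in KO livers, against 15.4% and 12.5% in floxed livers, so that the first KO library stands apart. Across the members, Pearson's r on log2(FPKM + 1) was 0.972 between the KO libraries and 0.980 between the floxed libraries. For KO with floxed libraries it was 0.978 and 0.981 with the same replicate number, and 0.972 and 0.974 with unlike numbers. Across genes, which are not independent replicates, the KO libraries were therefore no more alike than KO and floxed libraries were. The median absolute log2 difference was 0.224 between KO libraries, 0.160 between floxed libraries and 0.129 between the group means. Hepatocyte transcripts dominated all 4 libraries, with Alb, the albumin gene, at 18281 and 27308 FPKM in KO livers, against 26031 and 24898 FPKM in floxed livers. Of 15 listed genes of pancreas, muscle and fat, Prss2, Amy2b, Pnlip and Adipoq were listed at 0 in all 4. The rest of that list was not at 0 throughout. Its summed level was 8.41 and 12.3 FPKM in KO livers, against 5.16 and 8.56 FPKM in floxed livers. Its 1 member stood at a log2 difference of 0.57.

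The targeted gene comes first. Glul had 89.8 and 134 FPKM in KO livers, against 107 and 106 FPKM in floxed livers. The KO values lie on both sides of the floxed values. Its log2 difference was 0.05 ± 0.27 (SE), with an adjusted p of 1 by limma, and it became -0.24 without KO replicate 2. Whole liver holds the Glul transcripts of hepatocytes, in which Lyz2-driven Cre does not act, so this level does not check the genotype label. Lyz2 had 5.27 and 9.92 FPKM in KO livers, against 33.7 and 72.4 FPKM in floxed livers. Both KO values were below both floxed values, and the means stood at a KO to floxed ratio of 0.143. Its log2 difference of -2.61 ± 0.41 (SE) was the largest in size among the members, and it did not pass, with an adjusted p of 0.16 by limma. In many mice with this name Cre replaces part of the Lyz2 coding sequence, and the sources used here do not give the line. An altered Lyz2 allele, fewer Lyz2-expressing cells and less Lyz2 RNA per cell cannot be told apart in these values. For every cell type below, too, fewer cells and less RNA per cell cannot be told apart in bulk liver. After injury Lyz2 had 39.9 and 32.7 FPKM in injured KO livers, against 15.9 and 24.5 FPKM in injured floxed livers, and that difference did not pass either. Lyz1, the paralog of the gut, was near 0 throughout.

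By Pearson's r of log2(FPKM + 1) over all 8 libraries, the 5 members most like Glul were Tada2b, Timm17a, Nceh1, Timm29 and Crnkl1, with r between 0.983 and 0.987. Those most like Lyz2 were Glmp, Pygb, Gm12115, Fbxo42 and Rilpl1, with r between 0.876 and 0.915. The 8 libraries fall into injured and H2O groups, so these values describe likeness over groups as much as over libraries.

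**Figure D1:**
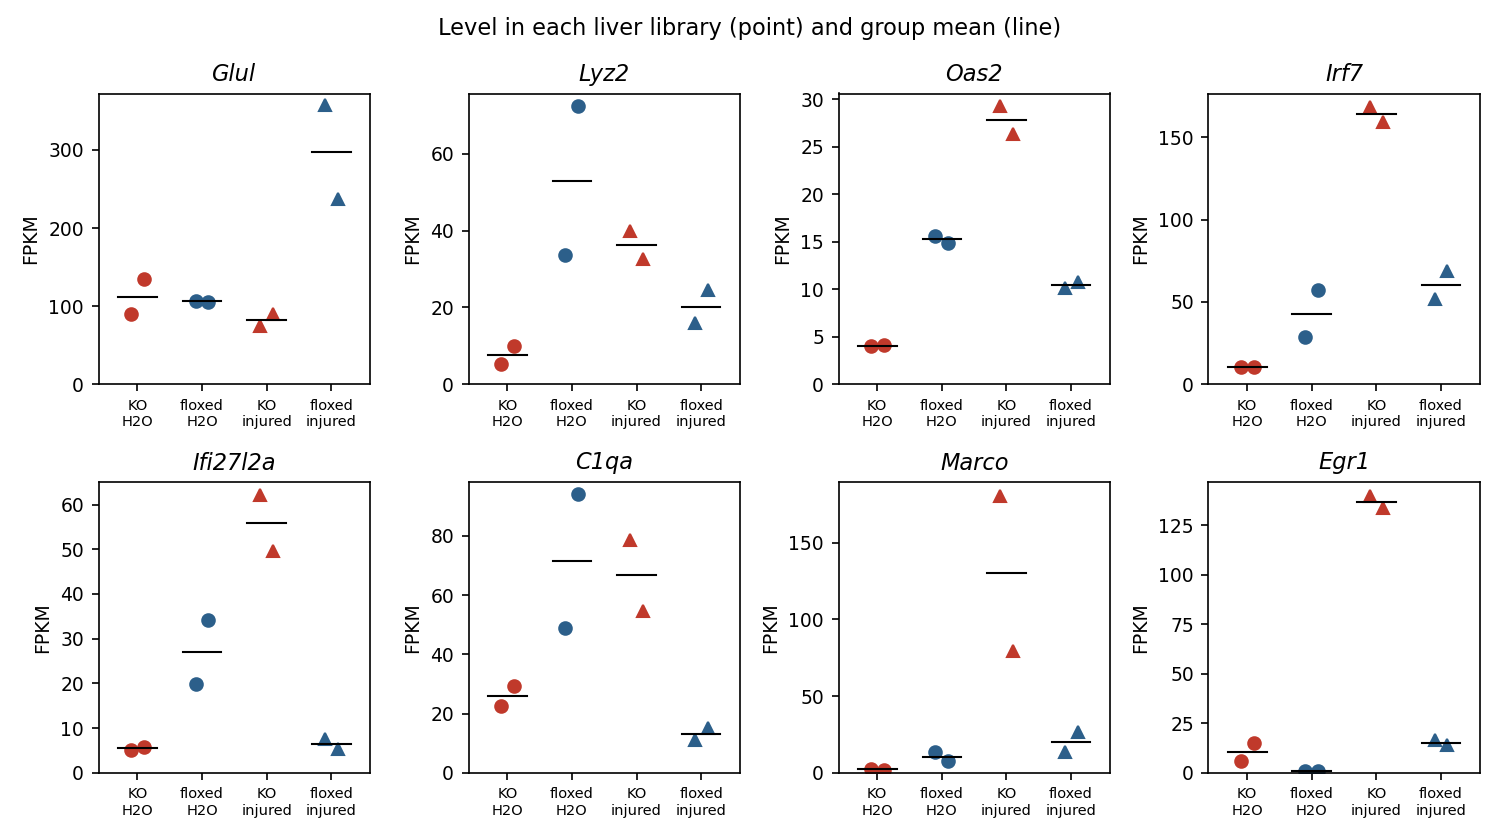
Levels in FPKM on linear axes for Glul, Lyz2, Oas2, Irf7, Ifi27l2a, C1qa, Marco and Egr1, with 1 point per library and a line at the mean of each group of 2. KO groups are red and floxed groups blue, circles are H2O and triangles injured. Glul overlaps between H2O groups, Lyz2 through Marco are lower in both H2O-treated KO livers, and Egr1 is higher in both.

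Only 1 of the 13708 genes tested passed at an adjusted p under 0.05, which is 0.00730%: Oas2 was lower in KO livers. To describe the rest, genes with an unadjusted p under 0.05 are counted, and such genes are not called changed. On that count 579 members (4.71%) were lower in KO livers and 141 (1.15%) were higher. Both KO libraries lay below both floxed libraries in 3441 members (28.0%) and above both in 697 (5.67%). These shares of all members are the ones to set beside the counts for each list below. Differences of more than 1 on the log2 scale were present in 72 members downward and 43 upward. The split depends on the scaling, since the median member was at -0.09, and higher genes made up 19.6% of the 720 members with an unadjusted p under 0.05. Centring each library on its median shifted the median by 0.10 on the log2 scale and gave 348 lower and 275 higher members, or 44.1% higher. Quantile normalisation gave 40.7% higher, a scaling without mitochondrial and haemoglobin genes 30.0%, and leaving out KO replicate 2 gave 34.3%.

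The members on the 2 sides were different kinds of gene. Of the 579 lower members, 456 (78.8%) were annotated as protein-coding, close to the 81.7% of all members. Of the 141 higher members, 35 (24.8%) were protein-coding. Among those with a known exon length, 42 of the 123 higher members (34.1%) were shorter than 300 bases, against 24 of the 566 lower members and 4.18% of all members. Some of the largest higher values rest on few fragments in short RNAs. Gm23316, the higher member with the smallest p, had 7 and 5 fragments in KO livers, against 0 and 1 in floxed livers. Mir378b, a microRNA precursor, had 7 and 5 fragments in KO livers, against 2 and 0 in floxed livers, and Gm22980 had 10 and 3 in KO livers, against 1 and 0 in floxed livers. Snora62, a small nucleolar RNA, had 23 and 18 fragments in KO livers, against 7 and 5 in floxed livers. ENSMUSG00002076173 had 313 and 247 FPKM in KO livers, against 66.8 and 127 FPKM in floxed livers, and ENSMUSG00002075524 had 53.5 and 201 FPKM in KO livers, against 22.3 and 32.2 FPKM in floxed livers, with 2 more unnamed identifiers, ENSMUSG00002075232 and ENSMUSG00002075551, at log2 differences of 1.49 and 1.46. None of these passed.

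**Figure D2:**
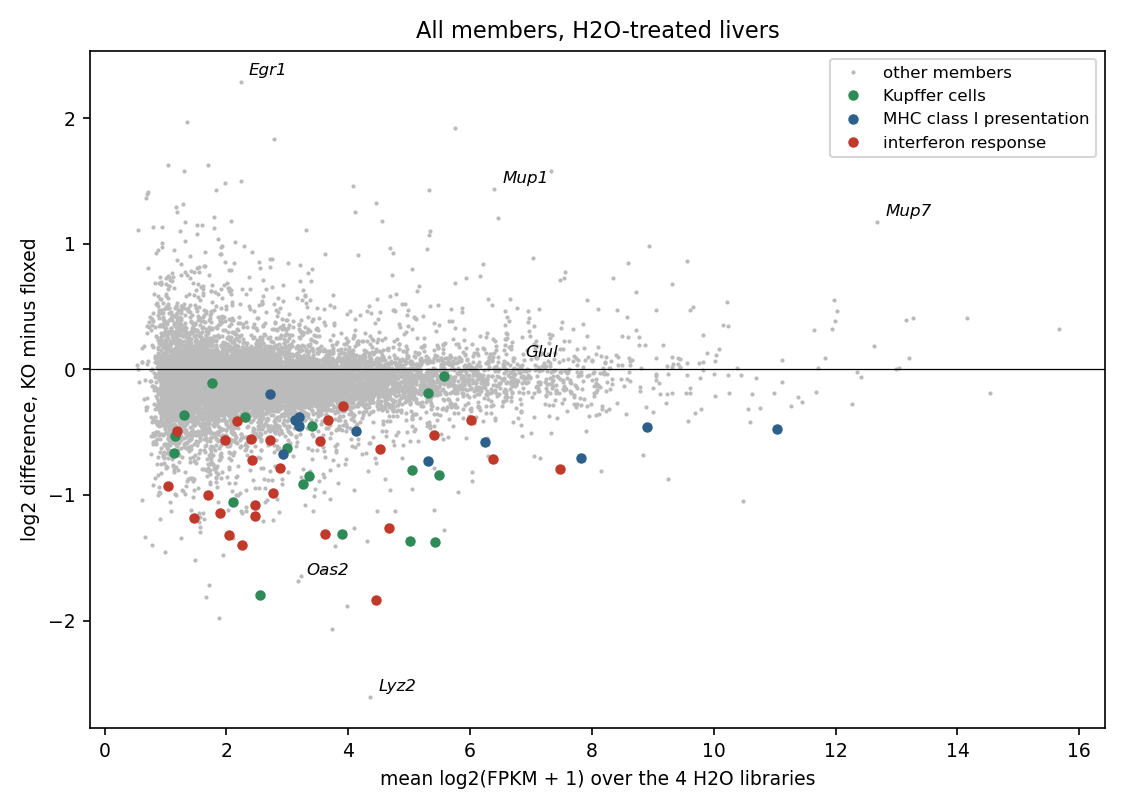
The KO minus floxed log2 difference of FPKM + 1 (vertical axis) against mean log2(FPKM + 1) over the 4 H2O libraries (horizontal axis), with 1 point per member. Interferon-response genes in red, MHC class I genes in blue and Kupffer cell markers in green all lie below 0, and Lyz2 at -2.61 and Egr1 at 2.29 are the extremes of named genes.

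Oas2, the gene that passed, is induced by interferon. Oas2 encodes an oligoadenylate synthetase, which senses double-stranded RNA and activates RNase L. Oas2 had 4.03 and 4.08 FPKM in KO livers, against 15.6 and 14.9 FPKM in floxed livers. Means were 4.06 ± 0.0342 FPKM in KO livers and 15.3 ± 0.495 FPKM in floxed livers (SD, n = 2 each). The replicates of each group nearly coincide, and Oas2 fell to a KO to floxed ratio of 0.266, with a log2 difference of -1.69 ± 0.14 (SE) and an adjusted p of 0.0349 by limma. That call rests on all 8 libraries: leaving out any 1 of them gave an adjusted p between 0.105 and 0.279, with log2 differences between -1.72 and -1.65. The replicate number as a block gave an adjusted p of 0.224 by limma, with the log2 difference at -1.69.

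The interferon-response list does not hold Oas2. All 27 of its genes were members, and 18 of them were lower at an unadjusted p under 0.05, where 4.71% of all members were. None was higher. In 25 of the 27 both KO libraries lay below both floxed libraries, where 28.0% of members did, and the 2 exceptions were Ifi27 and Irgm1. The list had a median log2 difference of -0.79, between -1.84 and -0.29, where the median member was at -0.09. Its floxed libraries were unlike each other: floxed replicate 2 was above floxed replicate 1 in 27 of 27 genes, with a median difference of 0.50 on the log2 scale, and KO replicate 2 was above KO replicate 1 in 13 of 27, with a median absolute difference of 0.15. Without floxed replicate 2 the count of 18 became 9 and the median -0.47, and without floxed replicate 1 they were 22 and -1.21.

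Among the regulators on the list, Irf7 stood lowest. Irf7, the transcription factor that amplifies type I interferon production, had 10.6 and 10.6 FPKM in KO livers, against 28.5 and 57.2 FPKM in floxed livers. The KO libraries are nearly equal, and floxed replicate 2 is well above floxed replicate 1. Its log2 difference was -1.84 ± 0.31 (SE), with an adjusted p of 0.187 by limma. Irf9, a DNA-binding part of the complex that interferon activates, had 8.51 and 8.62 FPKM in KO livers, against 12.2 and 14.3 FPKM in floxed livers. Stat2, whose product pairs with IRF9, had 36.3 and 32.7 FPKM in KO livers, against 48.1 and 51.9 FPKM in floxed livers. Groups do not overlap for any of these. Ifnb1, the interferon beta gene, was listed at 0 in all 4 libraries, and Ifngr1 and Ifngr2, the receptor chains for interferon gamma, stood at log2 differences of -0.48 and -0.37.

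Apart from Irgm1, the antiviral effectors described next were lower in both KO libraries. Oasl2, a relative of the oligoadenylate synthetases, had 1.69 and 1.51 FPKM in KO livers, against 4.63 and 6.45 FPKM in floxed livers. Oas1a had 2.09 and 1.82 FPKM in KO livers, against 5.24 and 8.69 FPKM in floxed livers, and Oas1g, a near-identical copy that can share its fragments, had 1.18 and 1.42 FPKM in KO livers, against 4.82 and 6.02 FPKM in floxed livers. For Ifit1, whose product binds viral RNA that lacks a methylated cap, the levels were 3.35 and 2.31 FPKM in KO livers, against 5.22 and 9.35 FPKM in floxed livers. Ifit2 and Ifit3 of the same family were at log2 differences of -1.18 and -1.31. Isg15, a ubiquitin-like protein attached to other proteins during the response, had 14.6 and 16.1 FPKM in KO livers, against 26.5 and 55.1 FPKM in floxed livers. Usp18, the protease that removes it, had 4.17 and 3.47 FPKM in KO livers, against 6.68 and 10.8 FPKM in floxed livers. Mx1 and Mx2, GTPases that block viral replication, stood at -1.14 and -0.56 on the log2 scale. Gbp3, a guanylate-binding protein that attacks the membranes around pathogens, had 2.79 and 2.63 FPKM in KO livers, against 6.47 and 8.25 FPKM in floxed livers, and its relatives Gbp7 and Gbp2 stood at -0.72 and -0.49. The immunity-related GTPases Iigp1, Irgm1 and Ifi47, which respond mainly to interferon gamma, had smaller differences of -0.40, -0.40 and -0.29, and the Irgm1 groups overlap. None of the 27 listed genes passed the adjusted threshold here, and some passed under alternatives given at the end.

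Several genes outside the list that are also induced by interferon were among the largest lower differences. Ifi27l2a had 5.16 and 5.76 FPKM in KO livers, against 19.9 and 34.1 FPKM in floxed livers, with a log2 difference of -2.07 ± 0.27 (SE) and an adjusted p of 0.114 by limma. Ly6a, a surface protein known as Sca-1, had 7.47 and 6.91 FPKM in KO livers, against 21.3 and 39.8 FPKM in floxed livers. Slfn8, of the Schlafen family, had 1.03 and 1.08 FPKM in KO livers, against 3.68 and 3.41 FPKM in floxed livers, and Siglec1, a sialic acid-binding receptor of macrophages that interferon raises, had 1.44 and 1.55 FPKM in KO livers, against 4.97 and 4.09 FPKM in floxed livers. In each of these genes every KO value was below every floxed value. Cxcl13, a chemokine that attracts B cells, had 1.06 and 0.662 FPKM in KO livers, against 2.37 and 14.7 FPKM in floxed livers, so that floxed replicate 2 alone carried most of its difference.

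**Figure D3:**
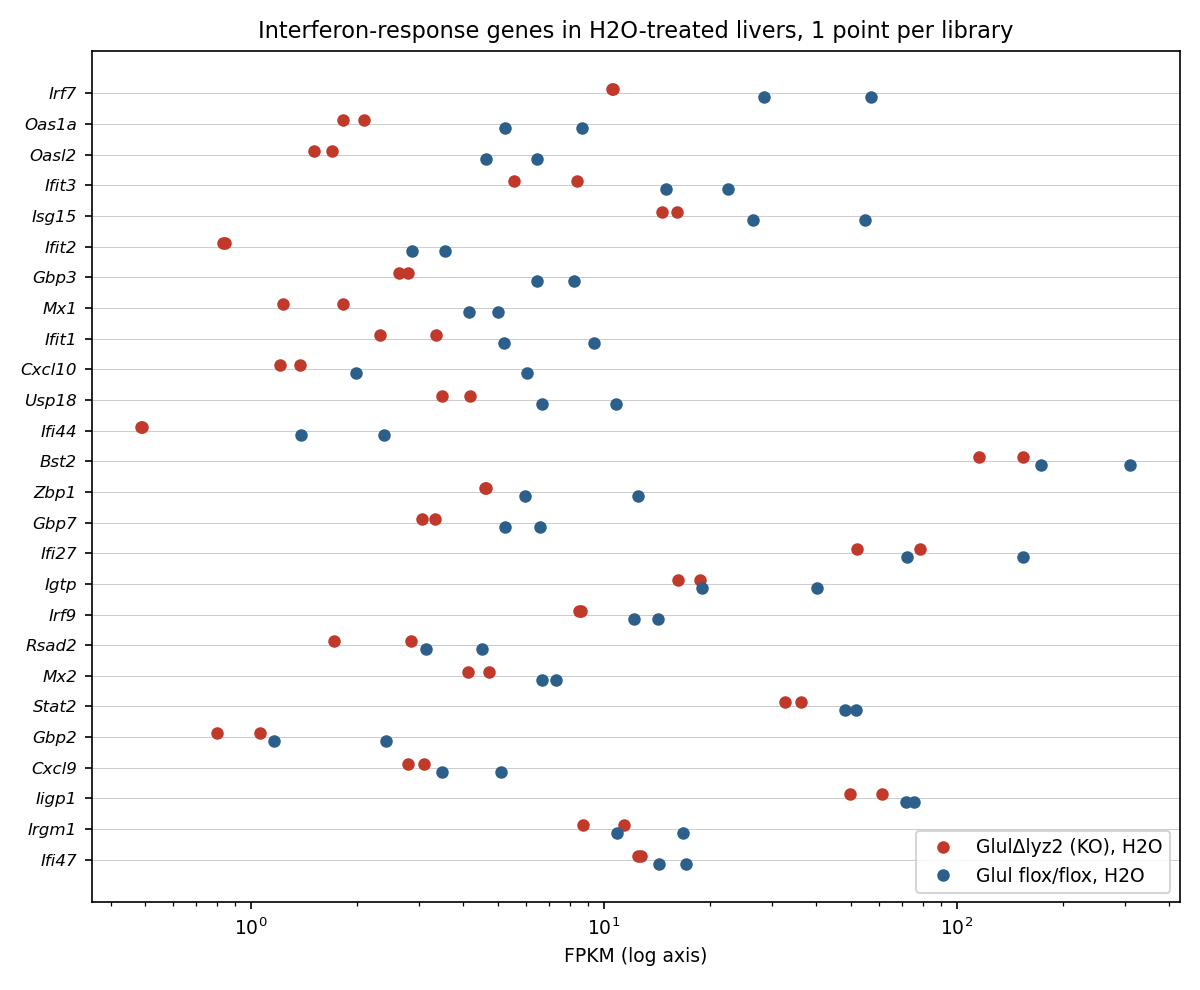
FPKM on a log axis for 26 of the 27 interferon-response genes in H2O-treated livers, ordered by their difference, with 1 point per library, KO in red above floxed in blue. KO points lie left of both floxed points in 24 of the 26 genes drawn, and the blue pairs are wider than most red pairs.

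The promoters of these genes were read in the RefSeq table of GRCm38.p6, from 250 bases before to 50 bases after the start, because the genes share a transcription factor complex. The ISRE core was searched as a pair of GAAA with any 2 bases between them, on both strands, with matches allowed to overlap. Of the 27 genes 20 matched the table, and 13 of these (65.0%) had a window with the motif, where 3.99% of all 27025 genes with a window did. The list was drawn up from genes known to respond to interferon, so a high share does not bear on these livers. Of the 395 members lower at an unadjusted p under 0.05 that matched the table, 54 (13.7%) held it. Among members 327 of 8500 (3.85%) did, and 2 of 39 higher members did. The 395 include lower genes of the interferon list, so this share is not separate from the first. None of the 14 Kupffer cell markers and 2 of the 9 MHC class I genes that matched held it. A match is a description of the letters and not a site. Windows of the listed genes Irf7, Oasl2, Irf9, Ifit2, Ifi44, Ifi47 and Cxcl9 held no match, nor did a second window of Gbp3. The windows below belong to 4 listed genes that hold the motif and were lower in both KO libraries, chosen after their values were seen. Capitals mark the motif as read on the gene's strand, where a pair of TTTC is its reverse complement.
Oas1a, chr5:120907476-120907775, minus strand: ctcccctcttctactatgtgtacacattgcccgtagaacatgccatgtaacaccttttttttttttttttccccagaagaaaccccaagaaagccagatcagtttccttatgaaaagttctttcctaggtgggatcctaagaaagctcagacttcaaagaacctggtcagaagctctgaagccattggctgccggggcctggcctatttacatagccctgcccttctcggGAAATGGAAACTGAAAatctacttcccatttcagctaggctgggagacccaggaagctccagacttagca
Gbp3, chr3:142559794-142560093, plus strand: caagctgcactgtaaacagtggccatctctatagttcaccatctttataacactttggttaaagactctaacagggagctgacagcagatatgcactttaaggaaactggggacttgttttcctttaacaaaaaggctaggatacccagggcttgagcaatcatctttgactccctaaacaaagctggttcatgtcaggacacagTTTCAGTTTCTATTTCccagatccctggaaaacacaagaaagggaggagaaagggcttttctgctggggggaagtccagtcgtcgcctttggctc
Isg15, chr4:156200769-156201068, minus strand: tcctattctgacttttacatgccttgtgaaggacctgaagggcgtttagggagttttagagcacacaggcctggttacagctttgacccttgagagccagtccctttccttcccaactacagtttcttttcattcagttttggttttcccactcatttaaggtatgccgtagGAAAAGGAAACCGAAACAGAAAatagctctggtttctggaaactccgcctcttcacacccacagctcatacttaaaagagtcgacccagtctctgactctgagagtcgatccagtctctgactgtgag
Ifit1, chr19:34640639-34640938, plus strand: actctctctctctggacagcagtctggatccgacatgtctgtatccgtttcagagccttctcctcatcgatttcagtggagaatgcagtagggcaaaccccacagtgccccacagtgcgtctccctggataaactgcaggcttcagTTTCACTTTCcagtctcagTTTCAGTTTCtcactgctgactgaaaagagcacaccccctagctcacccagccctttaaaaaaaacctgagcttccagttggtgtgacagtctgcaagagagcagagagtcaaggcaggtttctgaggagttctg
In Oas1a and Gbp3 a pair of matches overlaps close to the start, in Isg15 a run of 3 overlaps, and Ifit1 holds a separated pair.

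Genes of MHC class I presentation, by which a cell shows peptides from its cytosol to CD8 T cells, were also lower. All 11 listed genes were members, both KO libraries lay below both floxed libraries in 11 of 11, where 28.0% of members did, and 9 were lower at an unadjusted p under 0.05, where 4.71% of members were. Their median log2 difference was -0.48, between -0.73 and -0.20. The heavy chain H2-D1 had 161 and 193 FPKM in KO livers, against 275 and 301 FPKM in floxed livers, with a log2 difference of -0.70 ± 0.20 (SE). H2-Q4, a related heavy chain, had 35.3 and 25.0 FPKM in KO livers, against 54.2 and 46.2 FPKM in floxed livers. The non-classical chain H2-T23 had 60.6 and 60.9 FPKM in KO livers, against 94.4 and 88.4 FPKM in floxed livers. Since these chains are near-identical in places, fragments may be split between them. B2m, the shared light chain, had 1710.5 and 1859 FPKM in KO livers, against 2539 and 2432 FPKM in floxed livers. Psmb8, a catalytic subunit of the immunoproteasome, had 4.64 and 5.39 FPKM in KO livers, against 7.71 and 9.59 FPKM in floxed livers. The peptide transporter subunits Tap1 and Tap2 stood at -0.45 and -0.20 on the log2 scale. No gene of the list passed, and the count of 9 became 4 after median centring, 5 after quantile normalisation, 5 without KO replicate 1, 4 without floxed replicate 1 and 2 without floxed replicate 2.

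Markers of Kupffer cells had lower values in KO livers at baseline, and none passed the adjusted threshold. All 18 were members with a negative difference, 11 were lower at an unadjusted p under 0.05, where 4.71% of all members were, and none was higher. Both KO libraries lay below both floxed libraries in 15, where 28.0% of all members did. The median log2 difference was -0.73, and the summed level of the list was 223 and 239 FPKM in KO livers, against 376 and 454 FPKM in floxed livers. No marker passed. The count of 11 was 7 without KO replicate 1 and otherwise between 8 and 12 with 1 library left out.

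Among the receptors, Marco, a scavenger receptor that binds bacteria, had 2.19 and 2.12 FPKM in KO livers, against 13.3 and 7.43 FPKM in floxed livers. Timd4, the phosphatidylserine receptor of embryonically derived Kupffer cells, had 2.07 and 1.93 FPKM in KO livers, against 4.46 and 6.11 FPKM in floxed livers. Clec4f, a lectin that in mouse marks Kupffer cells, had 35.2 and 29.9 FPKM in KO livers, against 73.8 and 46.8 FPKM in floxed livers, and Vsig4, the receptor for complement fragments, had 5.31 and 6.75 FPKM in KO livers, against 14.5 and 10.1 FPKM in floxed livers. All 4 were lower in both KO libraries. Kupffer cells also secrete the C1q chains, part of the first component of complement. C1qa had 22.5 and 29.1 FPKM in KO livers, against 48.9 and 94.0 FPKM in floxed livers, with a log2 difference of -1.37 ± 0.34 (SE) and an adjusted p of 0.382 by limma. C1qb and C1qc stood at -1.36 and -1.31. By contrast Id3, Nr1h3 and Cd163 stood at -0.06, -0.19 and -0.11, and their groups overlap. Id3 and Nr1h3 are also expressed by other liver cells, and whether that bears on their differences was not tested. Spi1, which encodes the myeloid transcription factor PU.1, had 1.86 and 1.53 FPKM in KO livers, against 3.66 and 3.80 FPKM in floxed livers.

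The list of lysosomal and phagocytic genes of macrophages had 15 members of 16, of which 8 were lower at an unadjusted p under 0.05, where 4.71% of all members were, and none higher, with a median log2 difference of -0.49. Fcer1g, the signalling chain shared by Fc receptors, had 8.37 and 7.03 FPKM in KO livers, against 16.3 and 15.9 FPKM in floxed livers. Axl, a receptor for apoptotic cells, had 3.14 and 2.84 FPKM in KO livers, against 6.73 and 6.62 FPKM in floxed livers. Ctss, a cathepsin that trims the class II invariant chain, had 7.84 and 12.9 FPKM in KO livers, against 20.1 and 32.5 FPKM in floxed livers, and Lgmn, the lysosomal asparagine protease, had 9.06 and 11.0 FPKM in KO livers, against 15.9 and 19.5 FPKM in floxed livers. These 4 were lower in both KO libraries, with log2 differences of -0.98, -0.94, -1.27 and -0.76. Ctsb, Ctsl and Lamp2, which hepatocytes also make, stood at -0.43, -0.18 and -0.12. Whether their source in hepatocytes bears on this was not tested.

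Many markers of other blood cells were not members. Of 16 markers of monocytes and monocyte-derived macrophages 5 were members. Of these 3 were lower at an unadjusted p under 0.05, where 4.71% of all members were. Fcgr1, the high-affinity IgG receptor, had 0.688 and 0.841 FPKM in KO livers, against 2.67 and 2.34 FPKM in floxed livers, Plac8 had 1.74 and 2.97 FPKM in KO livers, against 4.64 and 5.31 FPKM in floxed livers, Cd9 had 4.91 and 6.44 FPKM in KO livers, against 8.61 and 8.98 FPKM in floxed livers and Spp1, which bile duct cells also express, had 12.5 and 21.9 FPKM in KO livers, against 18.2 and 33.0 FPKM in floxed livers. The defining genes Ly6c2 and Ccr2 did not reach 1 FPKM in any of the 4 libraries, and S100a4 was listed at 0. Of 16 neutrophil markers 2 were members, with Ly6g and Mpo listed at 0. Of the 2 members 1 was lower at an unadjusted p under 0.05, at a log2 difference of -0.68. Of 17 T and NK cell markers 5 were members, none with an unadjusted p under 0.05. For B and plasma cells 8 of 12 were members and 1 was lower at an unadjusted p under 0.05, namely Igkc, an antibody light chain, with 32.9 and 23.7 FPKM in KO livers, against 99.1 and 38.5 FPKM in floxed livers. For dendritic cells 4 of 10 were members and 2 were lower at an unadjusted p under 0.05, with a median of -0.48. Both KO libraries lay below both floxed libraries in all 4, where 28.0% of all members did. The summed level of the 10 was 123 and 159 FPKM in KO livers, against 182 and 318 FPKM in floxed livers. Most of it came from Bst2, which is also on the interferon list, with 116 and 154 FPKM in KO livers, against 173 and 310.2 FPKM in floxed livers. MHC class II genes, with 6 of 9 as members and 2 lower, had a median of -0.21. Ctss, which is also on the lysosomal list, was among the 2. H2-Ab1 had 6.02 and 9.02 FPKM in KO livers, against 6.21 and 8.44 FPKM in floxed livers.

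Sinusoidal endothelial and stellate cells are other non-parenchymal cells of the liver. Of 15 sinusoidal endothelial members 1 was lower at an unadjusted p under 0.05, the median was -0.17, and Stab2 had 7.69 and 7.03 FPKM in KO livers, against 9.45 and 7.31 FPKM in floxed livers. None of the 12 stellate cell members reached an unadjusted p under 0.05, although both KO libraries lay below both floxed libraries in 9, where 28.0% of members did, and the median was -0.40. For example Col3a1, a fibrillar collagen, had 1.83 and 2.49 FPKM in KO livers, against 4.05 and 4.86 FPKM in floxed livers. Red blood cell genes had 5 members with a median of -0.35, and Hba-a1 had 43.0 and 53.9 FPKM in KO livers, against 80.0 and 47.4 FPKM in floxed livers.

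The inflammatory signalling genes named here were low in all 4 libraries. The whole cytokine and chemokine list summed to 99.7 and 90.2 FPKM in KO livers, against 97.8 and 124 FPKM in floxed livers. Of 24 cytokines and chemokines 13 were members, 3 of them lower at an unadjusted p under 0.05, where 4.71% of all members were. Among the 3 was Cxcl10, which is also on the interferon list. Tnf, Il6, Ccl2 and Cxcl2 were below 1 FPKM in at least 3 of the 4 libraries. Cxcl10, a chemokine for activated T cells, had 1.21 and 1.38 FPKM in KO livers, against 1.98 and 6.06 FPKM in floxed livers, and Cxcl9 had 2.78 and 3.08 FPKM in KO livers, against 3.48 and 5.09 FPKM in floxed livers. Cxcl16, a membrane-bound chemokine, had 1.82 and 1.57 FPKM in KO livers, against 2.51 and 4.01 FPKM in floxed livers. Of the 18 NF-kB targets 14 were members and 4 were lower at an unadjusted p under 0.05, where 4.71% of all members were. Nfkb2 had 2.10 and 2.35 FPKM in KO livers, against 3.61 and 3.64 FPKM in floxed livers, Nfkb1 stood at -0.33, Nfkbie at -0.53 and the adhesion molecule Icam1 at -0.61 on the log2 scale. The median was -0.30 for the first list and -0.32 for the second. Macrophage activation states had 8 members of 18, of which 2 were lower, with a median of -0.16.

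On the higher side, the named hepatocyte genes were mainly major urinary proteins and a pair of regulators. Of 15 major urinary protein members 3 were higher at an unadjusted p under 0.05, where 1.15% of members were, and none was lower. Mup7 had 7743 and 12448 FPKM in KO livers, against 6410.0 and 2966 FPKM in floxed livers. Mup1 had 113 and 167 FPKM in KO livers, against 66.3 and 37.8 FPKM in floxed livers, Mup12 had 409 and 651 FPKM in KO livers, against 322 and 254 FPKM in floxed livers and Mup22 had 1121 and 926 FPKM in KO livers, against 457 and 689 FPKM in floxed livers. These lipocalins, which male mice excrete as pheromone carriers under growth hormone control, are near-identical, so that fragments may be split between copies. Mup3, one of the most abundant, had 7961 and 9067 FPKM in KO livers, against 8010.1 and 8832 FPKM in floxed livers, with no gap between groups. The median was 0.40, between 0.12 without floxed replicate 2 and 0.66 without floxed replicate 1. Mup-ps20, a pseudogene of the cluster, had 12.8 and 11.2 FPKM in KO livers, against 4.96 and 1.21 FPKM in floxed livers. Sex-biased hepatocyte genes had 14 members of 26, of which 2 were higher, and Mup7, counted above, is among the 2. The male-biased Cyp4a12b had 45.2 and 49.7 FPKM in KO livers, against 35.3 and 31.1 FPKM in floxed livers. Cyp4a12a had 138 and 147 FPKM in KO livers, against 102 and 112 FPKM in floxed livers. Selenbp2 had 539 and 728 FPKM in KO livers, against 502 and 405 FPKM in floxed livers. Xist, the RNA of the inactive X chromosome, was between 0.0104 and 0.0734 FPKM in all 4 libraries, and no sex chromosome gene had an unadjusted p under 0.05.

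Egr1, an immediate early transcription factor induced within minutes by growth factors, had 5.70 and 15.1 FPKM in KO livers, against 1.11 and 1.13 FPKM in floxed livers. Both KO values were above both floxed values, and the KO libraries differ from each other by more than the floxed libraries do. Its log2 difference was 2.29 ± 0.35 (SE), with an adjusted p of 0.16 by limma, and it ranged from 1.66 to 3.04 over the alternatives. Of the 14 immediate early members 3 were higher and 1 was lower at an unadjusted p under 0.05. Among all members 1.15% were higher and 4.71% lower. Ier2 had 12.6 and 16.6 FPKM in KO livers, against 9.75 and 9.997 FPKM in floxed livers, Btg2 had 4.53 and 3.75 FPKM in KO livers, against 2.38 and 2.15 FPKM in floxed livers, and Klf2, which is lower, had 1.80 and 1.68 FPKM in KO livers, against 2.72 and 2.77 FPKM in floxed livers.

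Nr0b2, the bile acid-induced repressor SHP, had 64.9 and 64.8 FPKM in KO livers, against 19.0 and 28.8 FPKM in floxed livers, with a log2 difference of 1.43 ± 0.48 (SE) and an adjusted p of 0.628 by limma. It was the 1 of 17 bile acid genes with an unadjusted p under 0.05. Its target Cyp7a1, which encodes the first and limiting step towards bile acids, had 24.1 and 41.5 FPKM in KO livers, against 30.2 and 28.5 FPKM in floxed livers. The sterol transporters Abcg5 and Abcg8 stood at -0.50 and -0.31, and Hsd3b7 of the synthesis pathway at -0.22.

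Of 17 circadian clock members 1 was lower and 1 higher at an unadjusted p under 0.05. Per1, a clock repressor that glucocorticoids also induce, had 0.791 and 0.831 FPKM in KO livers, against 3.73 and 2.27 FPKM in floxed livers. Nr1d1, the clock repressor REV-ERB alpha, had 3.82 and 3.54 FPKM in KO livers, against 2.64 and 2.08 FPKM in floxed livers. The core activators Arntl and Clock stood at -0.06 and 0.05, Usp2 at -0.44 and Bhlhe40 at -0.48. Glucocorticoid and fasting genes had 14 members, of which Per1 alone was lower, and a median of -0.27.

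Detoxification genes also gave some of the large lower values. Gsta1, a glutathione transferase induced by NRF2, had 6.13 and 2.90 FPKM in KO livers, against 16.5 and 14.5 FPKM in floxed livers. Gstm1 had 826 and 1189 FPKM in KO livers, against 2273 and 1852 FPKM in floxed livers, with a log2 difference of -1.05 ± 0.24 (SE), and Gstm3 had 36.9 and 63.0 FPKM in KO livers, against 109 and 68.0 FPKM in floxed livers. Hmox1, the haem oxygenase that macrophages use on red cell haem, had 4.77 and 6.93 FPKM in KO livers, against 9.27 and 9.04 FPKM in floxed livers. Of 18 NRF2 and xenobiotic members 3 were lower at an unadjusted p under 0.05 and none higher, with a median of -0.19. Among all members 4.71% were lower. The glutathione transferases have close paralogs that can share fragments. Traj1 and Gm22027, which the rule also names among the 10 largest lower members, rest on at most 5 and 19 fragments in any library.

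The glutamine pathway itself did not stand out. Of 28 listed genes 20 were members, 1 was lower at an unadjusted p under 0.05, and the median was -0.11. Among transporters, Slc1a5, which imports glutamine, had 3.10 and 2.40 FPKM in KO livers, against 3.78 and 3.96 FPKM in floxed livers, and Slc7a8 had 0.965 and 1.15 FPKM in KO livers, against 1.69 and 1.74 FPKM in floxed livers. Slc38a3, the main glutamine transporter of pericentral hepatocytes, had 295 and 242 FPKM in KO livers, against 372 and 233 FPKM in floxed livers. Of the enzymes, Gls2, the liver glutaminase, had 121 and 118 FPKM in KO livers, against 125 and 117 FPKM in floxed livers, the transaminase Got1 had 35.8 and 45.9 FPKM in KO livers, against 49.8 and 51.8 FPKM in floxed livers, and Oat had 218 and 311 FPKM in KO livers, against 191 and 214 FPKM in floxed livers. The groups do not overlap for Slc1a5, Slc7a8, Got1 and Oat, and they overlap for Slc38a3 and Gls2. None of the 13 pericentral members had an unadjusted p under 0.05, with a median of -0.04. Axin2, a target of Wnt signalling, had 2.02 and 1.72 FPKM in KO livers, against 2.54 and 2.24 FPKM in floxed livers, Tbx3 had 5.15 and 5.26 FPKM in KO livers, against 6.80 and 5.36 FPKM in floxed livers, Cldn2 had 15.3 and 18.2 FPKM in KO livers, against 12.5 and 17.8 FPKM in floxed livers and Cyp2e1 had 725 and 1178 FPKM in KO livers, against 806 and 973 FPKM in floxed livers.

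Other pathways showed few or no members with an unadjusted p under 0.05. That count was 0 for the 15 periportal, 8 urea cycle, 20 cholesterol synthesis, 18 fatty acid synthesis, 19 amino acid breakdown, 24 acute-phase and 15 secreted protein members. The same held for 16 members of the unfolded protein response, 14 heat shock chaperones, 25 cytosolic ribosomal proteins, 14 gluconeogenic, 15 glycolytic, 12 p53, 5 cell cycle and 3 cholangiocyte members. Among 22 members of fatty acid oxidation 1 was lower, Angptl4, an inhibitor of lipoprotein lipase, at -0.80, and among 14 iron-handling members 2 were lower. One of these was Slc40a1, the iron exporter ferroportin, with 8.64 and 7.52 FPKM in KO livers, against 11.5 and 11.3 FPKM in floxed livers. Slc40a1 is also on the list of Kupffer cell markers. The other was Hmox1, which is also on the NRF2 and xenobiotic list, so both were already counted above. Cps1, the entry enzyme of the urea cycle, had 173 and 339 FPKM in KO livers, against 219.9 and 239 FPKM in floxed livers, and Hamp, the iron hormone hepcidin, had 2273 and 2702 FPKM in KO livers, against 2401 and 3489 FPKM in floxed livers. With 2 libraries a group, a p that misses the threshold does not show that these pathways are alike.

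**Figure D4:**
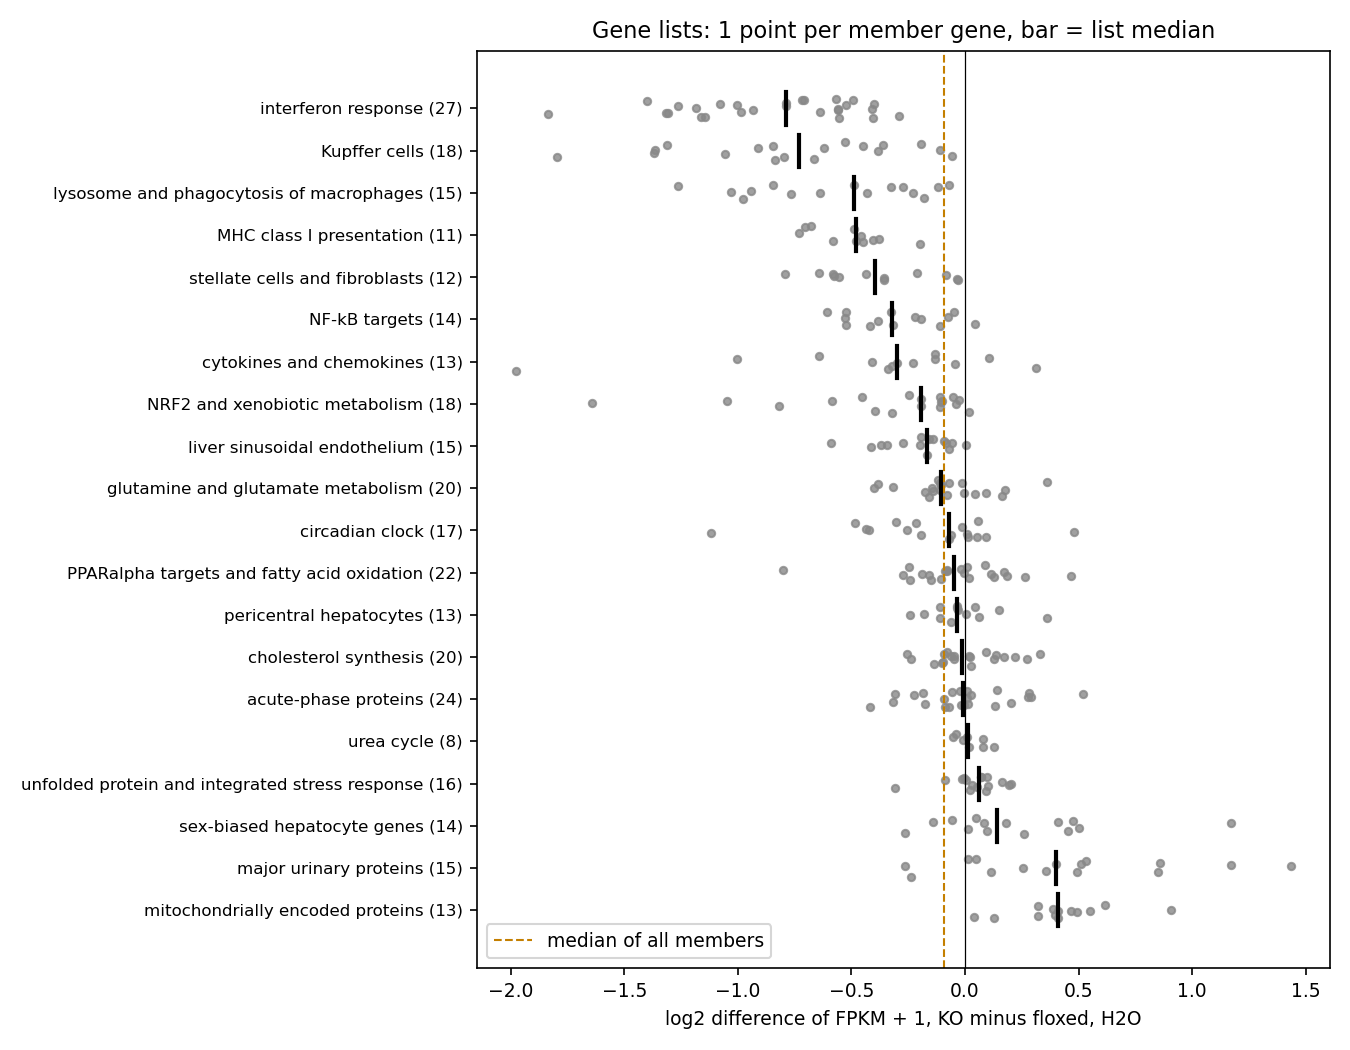
KO minus floxed log2 differences of FPKM + 1 in H2O-treated livers for members of 20 gene lists, 1 grey point per gene, with a black bar at each list's median and the number of members in brackets. The interferon list lies farthest left at a median of -0.79, Kupffer cell markers next at -0.73, and the orange dashed line marks the median of all members at -0.09.

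The 13 mitochondrially encoded genes all had positive differences, with a median of 0.41, and none had an unadjusted p under 0.05. They followed 1 library: KO replicate 1 was above KO replicate 2 in 13 of 13, and without KO replicate 1 the median was -0.02. Thus mt-Nd3, a subunit of complex I, had 716 and 378 FPKM in KO livers, against 339.5 and 337 FPKM in floxed livers, and mt-Nd6 had 6407 and 3663 FPKM in KO livers, against 3434 and 3185 FPKM in floxed livers. The values of mt-Nd1 were 15052 and 8539.9 FPKM in KO livers, against 9129 and 7964 FPKM in floxed livers, and those of mt-Atp8 were 43.2 and 12.5 FPKM in KO livers, against 11.5 and 12.6 FPKM in floxed livers. FPKM divides by all assigned fragments, mitochondrial ones included. A scaling without mitochondrial and haemoglobin genes counted 413 members as lower at an unadjusted p under 0.05, where FPKM counted 579. Among them were 18 interferon genes, 10 Kupffer cell markers and 8 lysosomal genes, where FPKM counted 18, 11 and 8, and 6 MHC class I genes, where FPKM counted 9.

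The genotype difference was next set beside that in injured livers, which uses 4 other libraries. After LPS with D-GalN, 2646 members (21.5%) were higher in KO livers and 3522 (28.7%) were lower, at an adjusted p under 0.05 by limma. Of the 579 members lower under H2O at an unadjusted p under 0.05, 327 rose in injured KO livers relative to injured floxed livers, and 40 fell. The shared 327 are 56.5% of the first set and 12.4% of the 2646. The median injured difference of the 579 was 0.70. Of the 141 higher under H2O, 38 rose and 28 fell in injured KO livers, with a median of 0.02. The genotype by injury interaction passed in 4092 members (33.3%), among them 421 of the 579 and 56 of the 141. Members were chosen by their H2O difference, which is part of the interaction, so these last counts are not independent of that choice.

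Of the MHC class I genes 11 of 11 rose in injured KO livers, with a median of 1.04, and the interaction passed in 11 of 11. Of the Kupffer cell markers 14 of 18 rose, with a median of 1.18, and the interaction passed in 16. Their summed level was 797 and 451 FPKM in injured KO livers, against 112 and 155 FPKM in injured floxed livers. The interferon list was mixed: 11 of 27 rose, 1 fell, the median was 0.31, and the interaction passed in 17, all positive. Oas2 had 29.4 and 26.4 FPKM in injured KO livers, against 10.2 and 10.8 FPKM in injured floxed livers, an order opposite to that under H2O, with an interaction of 3.02. Irf7 had 169 and 159 FPKM in injured KO livers, against 51.9 and 68.7 FPKM in injured floxed livers. Cxcl10 had 1073 and 847 FPKM in injured KO livers, against 21.5 and 21.1 FPKM in injured floxed livers, a log2 difference of 5.42. By contrast Gbp3 had 57.1 and 50.5 FPKM in injured KO livers, against 62.5 and 62.2 FPKM in injured floxed livers, and Ifit2 stood at -0.96 on the log2 scale after injury. Marco had 181 and 79.3 FPKM in injured KO livers, against 13.5 and 26.7 FPKM in injured floxed livers, and C1qa had 78.5 and 54.7 FPKM in injured KO livers, against 11.0 and 15.3 FPKM in injured floxed livers. Glul had 74.6 and 90.1 FPKM in injured KO livers, against 358 and 237 FPKM in injured floxed livers, so that after injury it was lower in KO livers, with a log2 difference of -1.82 and an adjusted p of 0.0014 by limma. Egr1, which was higher in KO livers under H2O, had 139.8 and 133 FPKM in injured KO livers, against 16.4 and 14.0 FPKM in injured floxed livers, so that its direction was the same in both states. Mup7 had 5108 and 6084 FPKM in injured KO livers, against 11649 and 13861 FPKM in injured floxed livers, opposite to H2O.

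**Figure D5:**
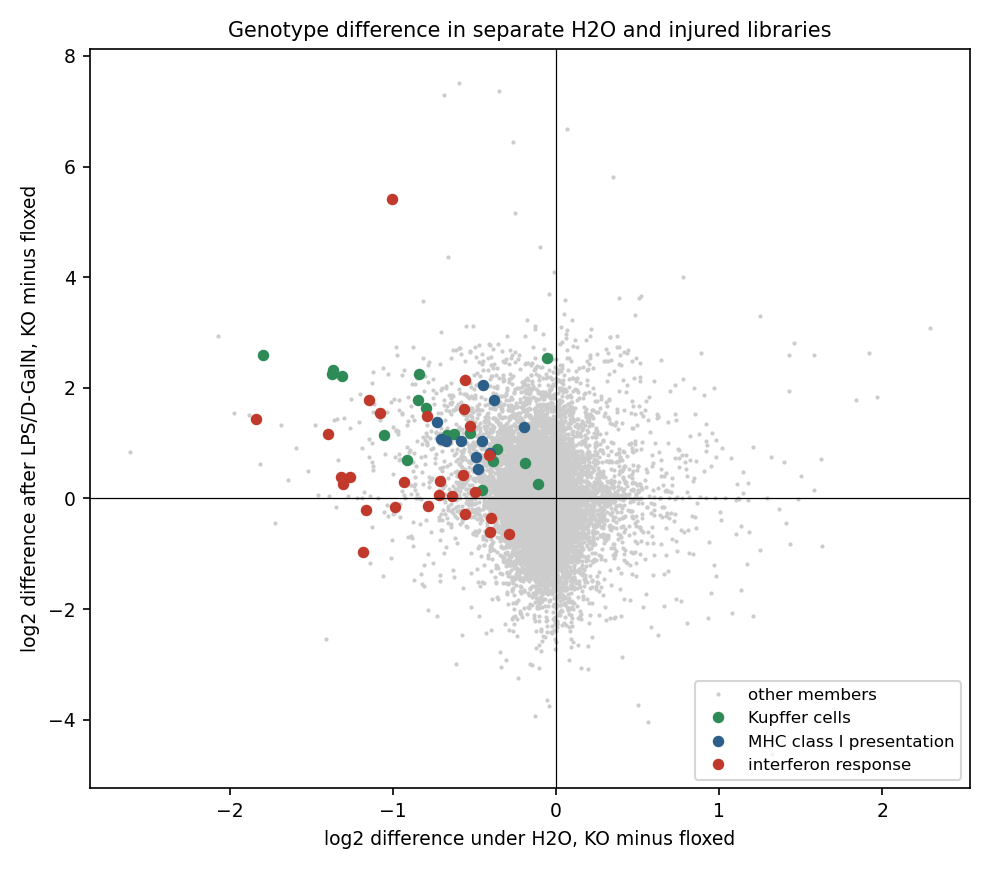
The KO minus floxed log2 difference after LPS/D-GalN (vertical axis) against that under H2O (horizontal axis), 1 point per member, from separate libraries. MHC class I genes in blue and Kupffer cell markers in green lie left of and above 0, and interferon-response genes in red lie left of 0 on both sides of the horizontal line.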

How the data were processed

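Per the labels' protocols, NEBNext Ultra libraries of liver RNA were read on an Illumina NovaSeq. The authors deposited 1 FPKM table of 55416 genes, with 1 column per library, matched to samples by their descriptions. The submitters' processing notes name DESeq2 3.15 and GRCm39, and the sources used here give no aligner or annotation. Multiplied by GENCODE M21 exon lengths (52135 genes matched), 98.2% to 98.5% of values in each library came within 0.01 of whole fragments, which gave the depths. Between 0.0403 and 0.0544 FPKM is 1 fragment in a gene of 1 kb.

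Values were used as log2(FPKM + 1), which understates changes of low genes. The 13708 genes that reached 1 FPKM in 2 or more of the 8 libraries were fitted with limma 3.58.1 (R 4.3.3), with 4 group means, 4 residual degrees of freedom and a variance trend. P-values are two-sided and adjusted by Benjamini-Hochberg over all 13708, with a threshold of 0.05. Differences are KO minus floxed. The model was also run on simulated fragments with known changes, drawn with 1 shared setting for the spread of all genes. Replicates there differed less systematically than these libraries do, so that run does not show how reliable the calls are here. Tables used Python 3.11.15 and pandas 2.3.3.

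Members and gene lists were chosen with earlier results of these data known. Genes were named by rule: Glul, Lyz2, the gene that passed, the largest differences with an unadjusted p under 0.05 and groups that do not overlap (to make 10 a direction), 4 members with the smallest p per list described, and the 5 most like Glul and Lyz2. Other genes named were chosen after their values were seen. The values of 1 listed interferon-response gene are not reported here. Alternatives were a pseudocount of 0.1, no filter, a mean of at least 5 FPKM, members alone, 3 other scalings, array weights, robust variance, the 4 H2O libraries alone, the replicate number as a block, voom on the recovered fragments, and each library left out.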

Additional observations from a re-analysis of the deposited data

Results flagged for a closer look

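Of the 79 genes named by rule, 51 had a genotype difference that was not the same under H2O and after injury, by the interaction term of limma at an adjusted p under 0.05. The interaction is the KO minus floxed difference after injury minus that under H2O, on the log2 scale, and it was positive in 44 and negative in 7. Many of these genes were named for a low KO value under H2O, which by itself raises the interaction, and 33.3% of all members passed it. For interferon-induced genes it was 3.02 for Oas2, 5.01 for Ifi27l2a, 3.38 for Ly6a, 3.28 for Irf7, 1.70 for Oasl2, 0.95 for Gbp3 and 2.57 for Oas1a. MHC class I genes had 1.72 for Psmb8, 2.11 for H2-Q4, 1.77 for H2-D1 and 1.62 for H2-T23. Among Lyz2 and the Kupffer cell markers it was 3.45 for Lyz2, 4.39 for Marco, 2.20 for Timd4, 3.62 for C1qa, 3.69 for C1qb and 3.53 for C1qc. Phagocyte and monocyte genes had 3.57 for Fcer1g, 1.67 for Lgmn, 2.47 for Axl, 2.53 for Ctss, 2.78 for Fcgr1, 3.11 for Plac8 and 1.45 for Cd9. For chemokines and NF-kB genes it was 6.42 for Cxcl10, 1.20 for Cxcl9, 3.51 for Cxcl13, 2.46 for Cxcl16, 1.50 for Icam1, 2.46 for Nfkb1, 2.38 for Nfkb2 and 1.71 for Nfkbie. Clock and immediate early genes had 1.71 for Per1, 2.83 for Nr1d1, 1.94 for Bhlhe40, 3.11 for Ier2 and 2.89 for Klf2. For detoxification and glutamine transport genes it was 1.98 for Gsta1, 1.86 for Gstm1, 2.49 for Hmox1, 1.46 for Slc1a5 and 1.19 for Slc7a8. The short or rarely read genes had 2.44 for Traj1 and 1.27 for Gm22027. The negative values were -1.86 for Glul, -2.26 for Mup1, -2.36 for Mup7, -3.21 for Cldn2, -0.66 for Tbx3, -2.49 for Gm23316 and -1.42 for Mir378b.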

How the results depend on the processing

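The 79 named genes gave 1640 values over 21 alternatives, since voom and the stricter filter left some genes untested. All of these values kept their direction, apart from Glul without H2O-treated KO replicate 2 and Cldn2 without H2O-treated floxed replicate 1. With a library left out Glul ranged from -0.24 to 0.33 and Cldn2 from -0.088 to 0.39. The number of genes that passed under H2O, 1 in the report, was 6 with a pseudocount of 0.1, 16 with no filter, 17 with a mean of at least 5 FPKM (fewer genes were tested), 14 with voom, and 0 in a model of only the 4 H2O libraries. With the replicate number as a block it was 0. Between 0 and 1 passed with any library left out, and the lone library of that group is then assumed to vary like the other groups. The 1 without KO replicate 1 was Egr1 (2.92). Lyz2 passed with voom (-2.79) and with a mean of at least 5 FPKM (-2.61). Under both settings Irf7, Oasl2 and Gbp3 of the interferon list also passed as lower, and Egr1 as higher. Oas1a passed as lower with a mean of at least 5 FPKM. With no filter, Oas2 was the only member among the 16. A mean of at least 5 FPKM left 5626 genes tested, where the report tested 13708. It counted 244 members as lower at an unadjusted p under 0.05, where the report counted 579. The interaction, 4940 genes in the report, was 2440 with a mean of at least 5 FPKM and between 2997 and 5019 with a library left out. Lower members at an unadjusted p under 0.05 numbered 9 to 22 of the interferon list, 2 to 8 of MHC class I, 7 to 12 of the Kupffer cell markers and 6 to 8 of the lysosomal list with a library left out. MHC class I had 4 after median centring and 5 after quantile normalisation. Of the members lower under H2O, 171 rose in injured KO livers with a mean of at least 5 FPKM, and 219 to 400 with a library left out. The causes were not tested.

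The titles' replicate numbers are not said to mark a batch. Same-numbered KO and floxed libraries deviated together with r = 0.287 under H2O and r = -0.126 after injury. Under H2O they were also more alike than libraries of unlike number, and whether they share a batch was not tested. The main fit did not use the numbers as pairs, and as a block they gave 0 genes under H2O. Crossing them in injured livers gave 0 genes under H2O and 5510 for the interaction. The list counts and crossed numbers were added after the data were seen. With 2 libraries a group, small differences were not detectable.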
